A study of Mus musculus with 88 samples.

Results

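The comparison set 4 mouse embryonic stem cell (ESC) lines in t2i, a 2i medium with the MEK inhibitor titrated down, against 4 lines in standard 2i. The 8 libraries were chosen by their labels alone, as every RNA-seq library of the 129X1/SvJ and C57BL6 F1 background made in either medium, out of 26 RNA-seq libraries among the 88 samples of the series. The 2i lines were c3 and c4 (XX) and c2 and c6 (XY). The t2i lines were t1 and t3 (XX) and t2 and t6 (XY). All 8 were at passage 3, none carries a transgene or deletion in its labels, and values below follow this order of lines. The titles of the t2i XX lines carry the number 0.2 with no unit, and no label gives an inhibitor dose with its unit. The labels give each line its own name in each medium and do not say which lines share parents or embryos, so p-values measure the spread between these lines. Libraries of the same background in a2i (which swaps the MEK inhibitor for one of Src) and in serum with LIF, 4 lines each, entered the fit to estimate that spread and are quoted where they place a t2i value. The series title concerns female ESCs that keep DNA methylation inherited from the gametes, and the comparison asks which transcripts differ when MEK is inhibited less.

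As background, MEK phosphorylates and activates ERK downstream of FGF receptors. ERK then induces early response transcription factors together with its own inhibitors, the Dusp phosphatases and the Sprouty and Spred proteins, so RNA of these inhibitors is a common readout of ERK activity. The second inhibitor of 2i acts on GSK3 and thereby stabilises beta-catenin. Prolonged MEK inhibition is known for low genomic DNA methylation in ESCs, and XX ESCs, with both X chromosomes active, are known for lower ERK output and lower methylation than XY ESCs. Many, though not all, imprinted genes and a group of germline genes are transcribed or silent according to DNA methylation at their control regions or promoters.

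Values are the deposited RPKM (reads scaled to gene length and to library depth) of 21942 loci on the mm10 build. A log2 difference is t2i minus 2i on the scale log2(RPKM + 1); this scale shrinks the change of weakly expressed genes. For both sexes together it is the mean of the XX and the XY difference. A gene was called when limma's moderated test, Benjamini-Hochberg adjusted over 13150 genes, gave an adjusted p under 0.05 (n = 4 and 4 lines, or 2 and 2 within a sex). Library sums of RPKM ran from 803270 to 897823, with 11251 to 11522 genes at 1 RPKM or more. Absolute depth is unknown; the step between the lowest values put relative depth at 0.77 to 1.14 times that of c3. Each of the 8 ESC markers was above 1 RPKM in each library, and Pou5f1 stood between 1469 and 2021 RPKM. Of 10 fibroblast markers 6 were at or below 1 RPKM in all 8 libraries, and the summed level of the 10 was 1.32 to 7.79 RPKM, against 789 to 1276 in the serum lines. The part of fibroblast RNA in the serum values quoted below was not tested. Of 6 primitive endoderm markers 5 stayed at or below 1 RPKM, with a highest value of 1.10. Of 5 trophectoderm markers 2 did so, and the sum of the 5 was 13.8 and 16.4 RPKM in the 2i XX lines, 6.59 and 5.22 in the t2i XX lines and 3.58 to 4.6 in the XY lines of both media. X-linked genes stood 0.89 to 1.01 log2 units above the autosomes in the XX lines relative to the XY lines, and between −0.04 and 0.02 in the XY lines.

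The t2i XY libraries stood apart in Y-linked RNA. Ddx3y, a Y-linked RNA helicase gene, measured 10.4 and 10.9 RPKM in the 2i XY lines c2 and c6 and 2.75 and 4.64 RPKM in the t2i XY lines t2 and t6, which is 25.7% and 43.5% of the 2i XY mean. Eif2s3y stood at 24.4% and 53.2% of that mean and Uty at 33.9% and 81.5%. In such bulk samples, fewer cells with a Y chromosome and less Y-linked RNA per cell cannot be told apart, and the part of this difference in the XY results below was not tested. The main counts within XY lines, and those of the germline and chromosome 7 genes, are therefore also given without t2 or without t6; without both, no XY comparison is left.

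Across all genes, 551 were higher in t2i (4.19% of those tested) and 511 lower (3.89%). Both shares are the background for the counts of the gene lists below. Most calls were small: their median absolute log2 difference was 0.59, and 136 of 1062 reached 1, 68 in each direction. The median log2 difference of all genes was 0.01. Without any 1 of the 8 lines the count ran from 569 (without t2) to 904 (without t3), and 410 genes (232 higher and 178 lower) were called in the full fit and in every such fit. A fit of the 8 libraries alone, with additive terms for medium and sex, called 415 genes (215 higher and 200 lower). Besides the losses given with each gene, it ended the calls of Peg10, Pecam1, Lef1, Id1, Stat3, Apcdd1, Cdkn2c and Gadd45b. With no filter on low values, Dusp6, Mycn, Sos2, Dnmt3a, Peg10, Dpep3, Lef1, Id1, Cdkn2c and Slc7a3 lost theirs. By the spread of the lines alone, all 4 t2i values lay above all 4 2i values in 391 genes (2.97%) and below them in 355 (2.7%), and 199 and 155 of these were also called.

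Among named genes past the threshold and free of overlap between the media, Phlda2, an imprinted gene that restrains placental growth, was raised most. The other raised genes of this group were Slc39a14 (a zinc and manganese transporter), Lgals3 (galectin 3), Cdkn1c, Crmp1, Spry4, Tspan7, Dzank1, Chrna9 (a nicotinic receptor subunit), Id1, Gap43 and Tm4sf5. Slc39a14 measured 1.92 and 0.38 RPKM in the 2i XX lines and 2.70 and 1.75 in the 2i XY lines, against 5.62 and 2.71 in the t2i XX lines and 11.8 and 8.63 in the t2i XY lines. Lgals3 measured 4.88, 6.03, 8.46 and 9.34 RPKM in 2i against 27.5, 22.4, 18.5 and 17.0 in t2i. For both genes the media did not overlap, and the log2 differences were 1.55 (SE 0.24, adjusted p = 0.0023) and 1.46 (SE 0.19, adjusted p = 0.00094) in limma. Crmp1 (1.38, SE 0.20) shares bases with its neighbour Evc, so reads of the pair may be split by the counting.

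The lowered genes were led by Dazl, which encodes an RNA-binding protein of germ cells, Tnni1 (slow skeletal troponin I), Bhmt (betaine-homocysteine methyltransferase) and Cdkn2a, which encodes the cell-cycle inhibitors Ink4a and Arf. Tnni1 measured 12.1, 13.0, 4.2 and 6.07 RPKM in 2i and 1.85, 2.76, 2.41 and 2.46 in t2i, a log2 difference of −1.43 (SE 0.16, adjusted p = 0.0004 in limma). Bhmt measured 4.57, 3.94, 1.46 and 2.13 RPKM in 2i and 0.36, 1.03, 0.40 and 0.16 in t2i, a log2 difference of −1.39 (SE 0.16, adjusted p = 0.00054 in limma). In these 2 genes the 2i XX lines were highest and every t2i line was below every 2i line. The other lowered genes were Car8, Esx1, Fcgrt (the neonatal Fc receptor), P2rx4 (an ATP-gated channel), Dok1, Lrrc75a, Lpl (lipoprotein lipase) and Dcun1d3, with log2 differences of −1.03 to −1.19. Each of these 24 genes kept its call whichever line was left out, except Spry4, Id1 and Esx1; Esx1 lost it without c4, c6 or t1 (−1.27 to −1.03).

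**Figure D1:**
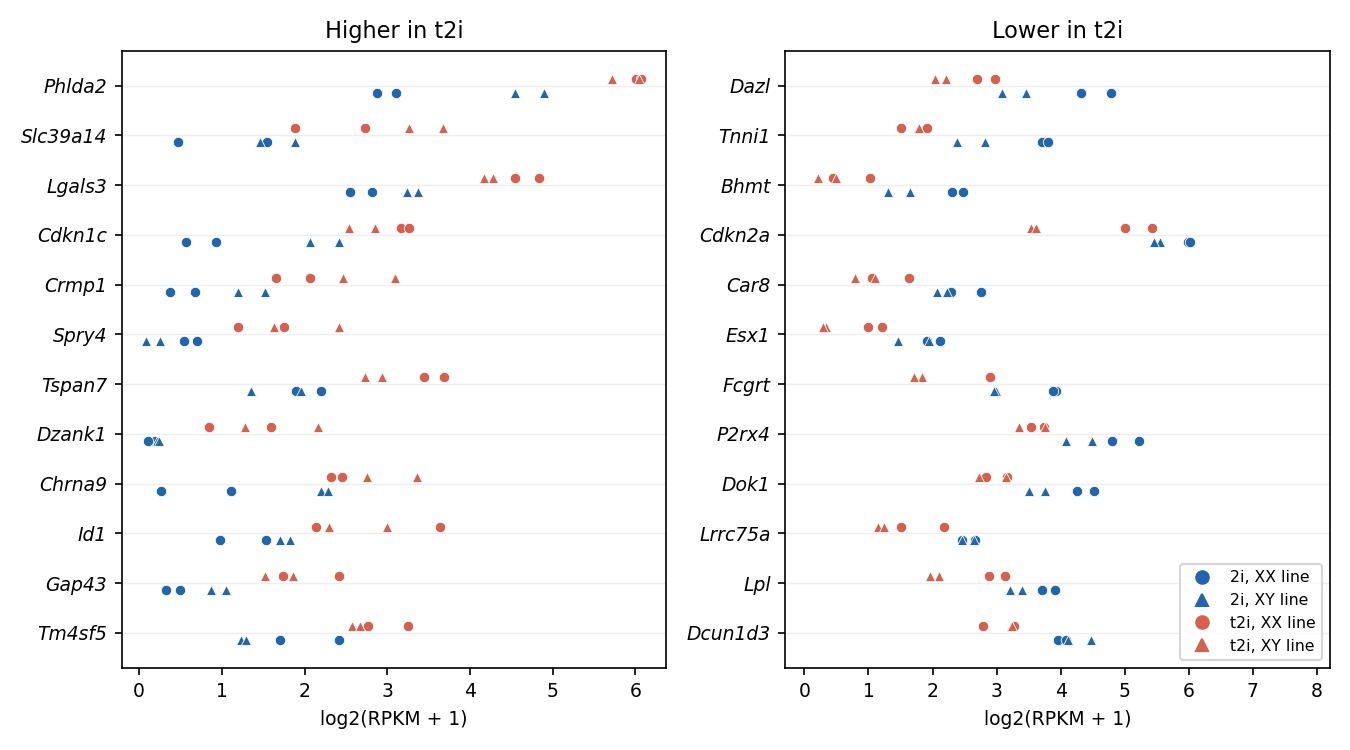
Level of the 12 most raised and 12 most lowered genes in each library, as log2(RPKM + 1) on the horizontal axis; blue marks are 2i lines, red marks t2i lines, circles XX and triangles XY. The media do not overlap in any of the 24 genes, which the rule that named them required, and Phlda2 shows the widest separation in the XX lines.

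Genes that feed back on ERK were higher in t2i in 2 of 11 tested members and lower in 0, with a list median of 0.37 against 0.01 for all genes (background 4.19% higher). Within XX lines limma called 0 of the 11, with 0 at an unadjusted p under 0.05 (background 3.54% higher). Within XY lines it called 1, Spry4, with 6 at an unadjusted p under 0.05 (background 1.06% higher). The difference between the sexes was called for 0 of the 11. Spry4, a Sprouty inhibitor of the pathway, measured 0.63, 0.46, 0.19 and 0.06 RPKM in 2i and 2.36, 1.29, 4.35 and 2.11 in t2i, with no overlap between the media. Its log2 difference was 1.35 (SE 0.31, adjusted p = 0.02 in limma). Dusp6, a phosphatase that acts on ERK, measured 1.74, 1.78, 3.03 and 2.45 RPKM in 2i and 3.65, 2.18, 9.70 and 6.05 in t2i, a log2 difference of 0.85 (SE 0.21, adjusted p = 0.03 in limma). Only t3, at 2.18 RPKM, fell inside the 2i range of Dusp6, and it was also the lowest t2i line for Spry4. Dusp4 lay higher in every t2i line (2.08 to 3.91 RPKM) than in every 2i line (1.05 to 1.74 RPKM) (0.51, SE 0.24) but was not called by limma (adjusted p = 0.23). Spry1 was ordered likewise, at 5.35 to 6.43 RPKM against 3.71 to 5.27 (0.37, SE 0.13, adjusted p = 0.11 in limma); it was singled out after its values were seen. Spry2 stood at 17.5 to 20.5 RPKM in 2i and 16.2 to 30.4 in t2i. Spry4 stayed called only without c2, t3 or t6 (1.16 to 1.55 over the 8 fits), and Dusp6 only without t3 or t6 (0.70 to 1.0). Dusp6 also lost its call in the additive fit and without the serum libraries, which leaves Spry4 as the called member of the 11 there.

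Among early response and effector genes of ERK, Ccnd1 and Mycn were higher in t2i (background 4.19%). The other 17 of 19 did not pass the test (list median −0.02). Ccnd1, which encodes the G1 cyclin D1, measured 36.7 and 38.6 RPKM in 2i XX lines and 91.9 and 65.4 in t2i XX lines, against 42.7 and 37.1 (2i) and 56.5 and 42.3 (t2i) in XY lines. Its log2 difference was 0.66 (SE 0.13, adjusted p = 0.0091 in limma). Mycn measured 26.3 and 23.4 RPKM in the 2i XY lines and 56.4 and 52.2 in the t2i XY lines, while the XX lines held 56.0 and 44.7 in 2i and 54.7 and 43.1 in t2i. Egr1, the classical immediate early gene, was below 0.1 RPKM in all 8 libraries, at most 2.28 in a2i lines and between 33.4 and 82.8 in serum lines. It was higher in a2i than in t2i by 1.11 log2 units (adjusted p = 0.0063 in limma). The ETS factors Etv4 and Etv5, both established ERK targets, did not pass the test (log2 differences of 0.25, SE 0.26, and −0.29, SE 0.19). Of 24 genes of the cascade and its FGF receptors 1 was higher and 1 lower, near the shares over all genes (background 4.19% and 3.89%). The higher one was Mapk3, which encodes ERK1 (0.58, SE 0.13), and the lower one Sos2, a Ras exchange factor (−0.51, SE 0.14). The additive fit of the 8 libraries ended the calls of Ccnd1, Mycn, Mapk3 and Sos2; single lines ended those of Mycn (kept only without c3 or t3), Mapk3 (lost without c2, c4 or t6) and Sos2 (kept only without c4).

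Of 7 genes that write or maintain DNA methylation, Dnmt3l and Dnmt3a were higher in t2i (background 4.19%). None was lower, and the list median was 0.19. Dnmt3l, the catalytically inactive partner of the de novo methyltransferases, measured 76.7 and 66.5 RPKM in the 2i XX lines, 32.2 and 29.6 in the 2i XY lines, 156 and 124 in the t2i XX lines and 48.1 and 60.9 in the t2i XY lines. Within each sex the t2i lines were above the 2i lines, and the XX lines were above the XY lines in both media. Dnmt3a, a de novo methyltransferase gene, measured 10.8, 10.6, 15.3 and 9.27 RPKM in 2i and 20.6, 12.7, 18.1 and 25.2 in t2i, so that t3 lay inside the 2i range. Dnmt3a was called only without c2 or t3 (0.51 to 0.84), and not in the additive fit. The third de novo gene, Dnmt3b, had a log2 difference of 0.43 (SE 0.23) that limma did not call (adjusted p = 0.30). The maintenance genes Dnmt1 (60.5 to 97.8 RPKM in 2i, 71.3 to 92.8 in t2i) and Uhrf1 (212 to 299.7 and 235 to 241 RPKM) had log2 differences of 0.03 (SE 0.11) and −0.10 (SE 0.10).

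None of 11 genes for demethylation and for protection of imprints was called in the mean of the sexes (list median 0.01). Among them were Tet1 (0.21, SE 0.14), Tet2 (−0.44, SE 0.21), Prdm14 (0.01, SE 0.10) and Zfp57, the zinc finger protein that protects imprints (0.14, SE 0.09). At an unadjusted p under 0.05 limma counted 0 of the 11, and no alternative fit was counted at that level. Dppa3, also called Stella, which protects methylation in the zygote, measured 58.6 and 75.6 RPKM in the 2i XX lines and 32.9 and 33.1 in the t2i XX lines, but 19.6 and 24.2 in the 2i XY lines and 31.9 and 56.3 in the t2i XY lines. The XX minus XY difference of its effect was −1.92 (SE 0.42, adjusted p = 0.048 in limma). Of 11 genes of Polycomb repressive complex 2, the accessory subunit genes Aebp2 (−0.45, SE 0.10) and Mtf2 (−0.36, SE 0.09) were lower (background 3.89% lower) and none was higher. Aebp2 lost its call without c2, c3 or t2, Mtf2 kept it only without c4, and neither held in the additive fit.

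Of 10 tested genes of the imprinted cluster on distal chromosome 7 none was lower, with a list median of 0.24. Phlda2, Cdkn1c and Slc22a18 were higher in t2i (background 4.19%). These 3 genes lie next to each other, are expressed from the maternal chromosome and are controlled by the KvDMR, a germline-methylated region in Kcnq1. The promoters of Phlda2 and Slc22a18 are shown because they differ in CpG content. Their methylation was not examined here, and its part in the levels of these genes was not tested. For Cdkn1c no RefSeq promoter was matched. RefSeq windows (GRCm38.p6) were Phlda2 (chr7:143502475-143502774, minus strand) and Slc22a18 (chr7:143473539-143473838, plus strand). The Phlda2 start lies 626 bases from the upstream end of its deposited locus, so that window falls inside the locus. Each window runs from 250 bases before to 50 after the start, with CG in capitals.
Phlda2: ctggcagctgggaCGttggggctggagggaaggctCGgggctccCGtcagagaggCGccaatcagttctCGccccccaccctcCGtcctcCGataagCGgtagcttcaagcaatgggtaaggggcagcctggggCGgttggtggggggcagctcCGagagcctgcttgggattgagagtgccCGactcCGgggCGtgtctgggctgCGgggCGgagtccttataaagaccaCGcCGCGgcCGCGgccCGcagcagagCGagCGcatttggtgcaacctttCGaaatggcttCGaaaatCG
Slc22a18: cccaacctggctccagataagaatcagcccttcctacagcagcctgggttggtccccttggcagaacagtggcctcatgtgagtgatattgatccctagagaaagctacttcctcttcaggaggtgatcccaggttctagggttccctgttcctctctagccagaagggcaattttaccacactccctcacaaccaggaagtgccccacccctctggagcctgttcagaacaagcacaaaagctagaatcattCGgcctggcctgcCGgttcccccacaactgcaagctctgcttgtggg
The Phlda2 window held 26 CG, more than 83.1% of 32851 RefSeq promoters of that length, and the Slc22a18 window 2, more than 14.1% of them (median 7).

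Phlda2 (chr7:143501545-143503150) measured 7.62 and 6.33 RPKM in the 2i XX lines, 28.7 and 22.4 in the 2i XY lines, 63.6 and 66.4 in the t2i XX lines and 51.5 and 64.8 in the t2i XY lines. The 4 t2i lines were thus above all 2i lines, and the XX lines, lowest in 2i, shared the range of the XY lines in t2i. Its log2 difference was 2.11 (SE 0.21, adjusted p = 0.00032 in limma), made of 3.05 in XX lines and 1.16 in XY lines (adjusted p of the difference 0.056). Cdkn1c (chr7:143458339-143461050), which encodes the Cdk inhibitor p57, measured 0.91 and 0.48 RPKM in the 2i XX lines, 3.18 and 4.34 in the 2i XY lines, 7.97 and 8.63 in the t2i XX lines and 4.80 and 6.22 in the t2i XY lines. Here too the media did not overlap, and in t2i the XX lines were the highest. The log2 difference of Cdkn1c was 2.47 in XX lines (adjusted p = 8.3e-05) and 0.46 in XY lines (adjusted p = 0.31), and the difference between the sexes was 2.01 (SE 0.31, adjusted p = 0.0084) in limma. Slc22a18 (chr7:143473736-143499334), a membrane transporter gene, rose from 0.54 and 0.37 RPKM to 4.30 and 3.99 in XX lines, against 8.04 and 6.57 in 2i and 9.53 and 10.9 in t2i XY lines (difference between the sexes 1.39, SE 0.28, adjusted p = 0.034 in limma). All 3 calls held whichever line was left out; the additive fit ended that of Cdkn1c.

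Within the XX lines 4 of the 10 cluster genes were higher (background 3.54%) and 0 lower; within the XY lines limma called 0 (background 1.06% higher and 1.4% lower), with 4 of 10 at an unadjusted p under 0.05; it also called 0 without t2 and 0 without t6. The fourth was Ascl2, a trophoblast transcription factor gene, which measured 1.43 and 1.44 RPKM in the 2i XX lines and 5.12 and 4.24 in the t2i XX lines, but 7.74 and 5.11 in the 2i XY lines and 3.18 and 3.14 in the t2i XY lines. Ascl2 therefore had log2 differences of 1.22 in XX and −0.81 in XY lines (adjusted p of the difference 0.0082 in limma); it was singled out after its values were seen. Cd81 (296 to 373 RPKM over the 8 libraries), Nap1l4 (165 to 266) and Tssc4 (29.1 to 38.4), broadly expressed genes of the same region, did not pass the test. Igf2 stood between 0.09 and 1.28 RPKM.

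**Figure D2:**
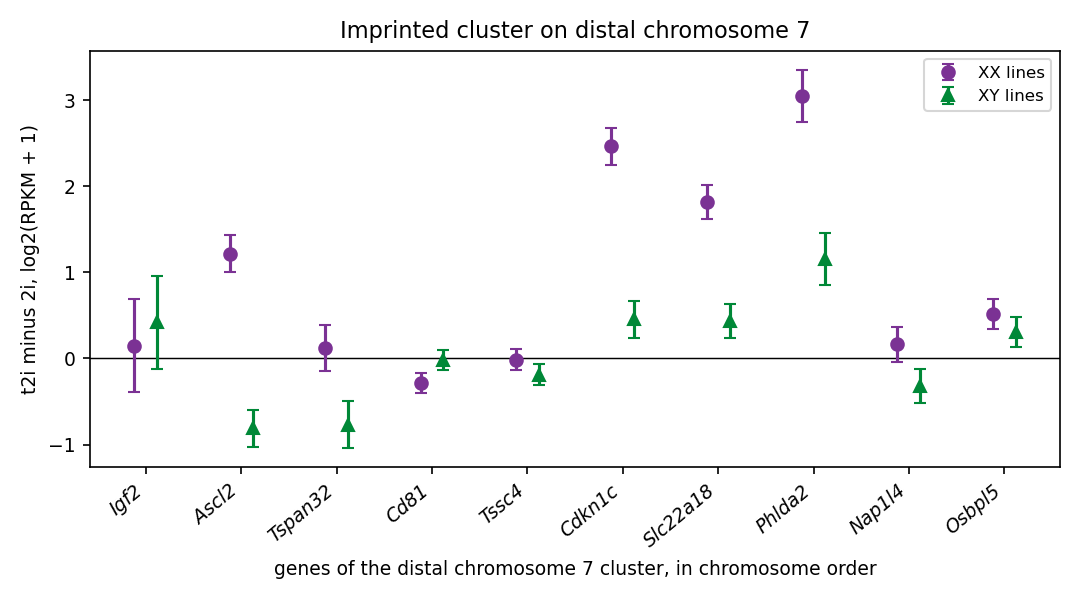
Log2 difference t2i minus 2i (vertical axis, log2(RPKM + 1) scale) of the 10 tested genes of the cluster, in their order along the chromosome; circles are XX lines, triangles XY lines, and bars 1 standard error of the fit. Cdkn1c, Slc22a18 and Phlda2 reach 1.82 to 3.05 in XX lines and 0.43 to 1.16 in XY lines, and Ascl2 lies on opposite sides of 0.

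Elsewhere imprinted genes moved in both directions. Of 9 maternally expressed genes outside that cluster only Grb10, an adaptor that dampens growth factor receptors, was called (0.68, SE 0.16, higher). Of 26 paternally expressed genes 2 were higher and 3 lower (background 4.19% and 3.89%), with a list median of 0.00. Plagl1, a zinc finger gene also called Zac1, measured 84.9 and 74.6 RPKM (2i) against 28.2 and 27.5 (t2i) in XX lines, and 24.7 and 22.7 (2i) against 9.0 and 7.0 (t2i) in XY lines. The log2 differences of Plagl1 were −1.48 in XX and −1.46 in XY lines (SE of their difference 0.40), and its serum lines were lower still, at 1.91 to 12.5 RPKM. Zrsr1 fell as well (10.6, 10.6, 6.07 and 6.81 RPKM in 2i, 7.0, 7.26, 3.77 and 4.06 in t2i; −0.56, SE 0.10, adjusted p = 0.0039 in limma). The third lower gene was Jade1, named after its value was seen (−0.40). The 2 raised genes were Peg10, a retrotransposon-derived placental gene (10.1, 5.85, 2.27 and 2.01 RPKM in 2i, 13.4, 10.3, 7.67 and 4.65 in t2i; 0.85, SE 0.21), and Sfmbt2 (1.84 to 2.36 RPKM in 2i, 3.18 to 5.22 in t2i; 0.79, SE 0.17). Single lines ended the calls of Grb10 (kept without c2, c4 or t3), Peg10 (kept without c3, t3 or t6) and Sfmbt2 (lost without c6 or t6).

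Of 26 germline genes whose promoters are known to be methylated in somatic cells, 4 were lower in t2i and 1 higher (background 3.89% and 4.19%). The promoters of the most lowered and of the raised gene are given from RefSeq (GRCm38.p6) with CG in capitals, since germline genes of this group are silenced through such sequences: Dazl (chr17:50293571-50293870, minus strand) and Syce1 (chr7:140787805-140788104, minus strand).
Dazl: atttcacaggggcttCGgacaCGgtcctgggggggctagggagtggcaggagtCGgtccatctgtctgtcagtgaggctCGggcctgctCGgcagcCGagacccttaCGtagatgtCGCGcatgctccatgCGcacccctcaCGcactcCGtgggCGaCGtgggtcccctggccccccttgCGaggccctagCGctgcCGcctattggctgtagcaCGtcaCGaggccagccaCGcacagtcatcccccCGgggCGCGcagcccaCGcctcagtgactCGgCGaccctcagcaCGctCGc
Syce1: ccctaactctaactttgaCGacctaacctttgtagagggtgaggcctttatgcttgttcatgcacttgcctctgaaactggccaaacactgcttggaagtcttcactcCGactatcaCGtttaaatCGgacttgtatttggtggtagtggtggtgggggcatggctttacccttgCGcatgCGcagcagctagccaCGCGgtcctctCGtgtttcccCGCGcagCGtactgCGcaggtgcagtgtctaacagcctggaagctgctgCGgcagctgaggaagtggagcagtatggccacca
The windows held 28 and 14 CG, more than 85.8% and 63.7% of promoters. Neither held CACGTG, the E-box (in 7.15% of promoters, either strand), TCCCGC, an E2F-type motif (in 20.0%), or CCGGAAG, an ETS-type motif (in 8.86%).

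Dazl (chr17:50279394-50293599) measured 19 and 26.7 RPKM in the 2i XX lines and 7.51 and 10.0 in the 2i XY lines, against 5.45 and 6.84 in the t2i XX lines and 3.12 and 3.61 in the t2i XY lines. Every t2i line was below every 2i line, and the XX lines were above the XY lines in each medium. The log2 difference was −1.44 (SE 0.17, adjusted p = 0.00055 in limma), −1.73 in XX and −1.15 in XY lines. Syce1, a synaptonemal complex gene, went the other way: 6.73, 7.26, 4.11 and 4.74 RPKM in 2i and 15.7, 14.8, 6.07 and 6.93 in t2i (0.75, SE 0.12, adjusted p = 0.0022 in limma).

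The other lower germline genes had their larger differences in XY lines. Tuba3a, a testis alpha-tubulin gene, measured 45.4 and 50.7 RPKM in the 2i XY lines and 7.89 and 17.4 in the t2i XY lines, while the XX lines held 64.8 and 74.2 in 2i and 50.4 and 62.3 in t2i. Dpep3, a testis dipeptidase gene, measured 2.94 and 3.36 RPKM in the 2i XY lines and 0.22 and 0.88 in the t2i XY lines, and 0.54 to 1.19 in the XX lines of both media. Fkbp6, which acts in the piRNA pathway and was named after its value was seen, had log2 differences of −1.23 in XY and 0.08 in XX lines. Within the XX lines 4 of the 26 genes were higher and 1 lower (background 3.54% and 2.4%). Within the XY lines 0 were higher and 5 lower (background 1.06% and 1.4%). Without t2 limma called 0 of the 26 within XY lines, and without t6 it called Dpep3 and Tuba3a, both lower. The difference between the sexes was itself called for 1 of the 26, Mael, a piRNA pathway gene singled out after its values were seen (1.44 in XX and −0.51 in XY lines, adjusted p 0.048 in limma), and was not for Tuba3a (adjusted p = 0.12), Dpep3 (0.078) or Fkbp6 (0.065). The low Y-linked RNA of t2 and t6 coincides with these XY values, and its part in them was not tested. The additive fit ended the calls of Tuba3a and Dpep3; Tuba3a was also lost without t1 (−1.38 to −0.86) and Dpep3 kept only without c3, t3 or t6.

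Core pluripotency genes were higher in 4 of 13 members and lower in 0 (list median 0.18, background 4.19% higher and 3.89% lower). Lin28b, whose protein blocks let-7 maturation, measured 0.50, 0.38, 1.01 and 0.94 RPKM in 2i and 1.86, 1.74, 4.03 and 3.50 in t2i, with no overlap (1.11, SE 0.11, adjusted p = 0.00032 in limma). Its paralog Lin28a measured 16.9, 11.1, 50.4 and 42.2 RPKM in 2i and 47.4, 32.9, 86.8 and 79.7 in t2i (1.15, SE 0.18, adjusted p = 0.0023 in limma). Both paralogs were thus higher in t2i within each sex, and both were higher in XY than in XX lines. Utf1, a chromatin-bound ESC factor (66.1 to 137 RPKM in 2i, 154 to 188 in t2i), and Tdgf1, the Nodal co-receptor Cripto (197 to 346 and 309 to 612 RPKM), were higher by 0.81 log2 units each (SE 0.10 and 0.14). Pou5f1, Sox2 and Nanog did not pass the test, with log2 differences of 0.09 (SE 0.08), 0.11 (SE 0.09) and −0.07 (SE 0.09). These 4 raised genes kept their calls whichever line was left out.

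Naive pluripotency genes were not called in 16 of 17 cases (list median 0.01). Esrrb (0.15, SE 0.11), Klf2 (0.13, SE 0.14), Klf4 (0.49, SE 0.18, adjusted p = 0.12), Tfcp2l1 (0.01, SE 0.14) and Zfp42 (0.05, SE 0.08) were among them, with p from limma. The exception was the adhesion gene Pecam1, at 49.1 to 57.9 RPKM in 2i and 36.4 to 45.0 in t2i (−0.43, SE 0.10, adjusted p = 0.016 in limma); it lost the call without c2, c3, t1 or t2. Of 17 formative and primed epiblast genes 3 were higher and 1 lower (background 4.19% and 3.89%). Grhl2, a transcription factor that opens epithelial enhancers, measured 2.52, 3.78, 0.62 and 1.16 RPKM in 2i and 6.84, 8.16, 2.90 and 4.27 in t2i (1.16, SE 0.17, adjusted p = 0.0017 in limma). Tcf15, a bHLH factor, rose from 12.3, 13.1, 5.58 and 4.37 to 23.3, 20.0, 10.1 and 7.78 RPKM (0.72, SE 0.12). Otx2, a transcription factor of the formative epiblast, was lower: 13.4, 15.8, 10.7 and 11.7 RPKM in 2i and 5.65, 9.43, 3.92 and 5.29 in t2i (−1.02, SE 0.21, adjusted p = 0.012 in limma; lost without t1 or t2). The a2i lines held 20.5, 13.6, 7.76 and 10.4 RPKM of Otx2, 0.97 log2 units above t2i without passing the test (adjusted p = 0.055 in limma). Lef1, called higher at 0.75 (SE 0.21), lost its call in each of the 8 fits without a line. Fgf5 and Pou3f1, which mark primed cells, stood at or below 1.45 RPKM in all 8 libraries.

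Epithelial junction and cytoskeleton genes were higher in 4 of 17 cases and lower in 0 (background 4.19% and 3.89%), with a list median of −0.02. Epcam, a surface adhesion gene, measured 63.1, 59.2, 69.0 and 71.6 RPKM in 2i and 95.4, 101, 103 and 112 in t2i, 4 values above all of those in 2i (0.64, SE 0.08, adjusted p = 0.00075 in limma). Cldn6, a tight junction gene, measured 3.25, 2.95, 11.7 and 14.5 RPKM in 2i and 25.2, 13.0, 26.4 and 30.8 in t2i (1.65, SE 0.17, adjusted p = 0.00032 in limma). Esrp1, a splicing factor of epithelial cells, went from 0.08 and 0.21 to 2.08 and 2.78 RPKM in XX lines and from 4.11 and 3.04 to 6.46 and 8.22 in XY lines (1.22, SE 0.16). In the a2i and the serum lines all of Epcam (114 to 143 and 121 to 142 RPKM) and Esrp1 (3.14 to 11.8 and 15.7 to 28.9 RPKM) lay above every 2i line of that sex. Cldn7 was called at 1.23 (SE 0.28) but not without c3, c6, t1 or t6 (0.96 to 1.5), nor in the additive fit. Cdh1, which encodes E-cadherin, stood between 64.7 and 137 RPKM in 2i and between 80.2 and 131 in t2i (0.06, SE 0.09).

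Genes of the other signalling pathways were called one by one. In the LIF and STAT3 list 3 of 11 were higher and 1 lower (background 4.19% and 3.89%). The feedback inhibitor gene Socs3 measured 61.2, 57.3, 70.5 and 37.7 RPKM in 2i and 98.6, 134, 111 and 89.8 in t2i (0.94, SE 0.18, adjusted p = 0.0068 in limma). Socs2 was higher by 0.60 (SE 0.10) and Stat3 itself by 0.45 (SE 0.11; kept only without c2, c4 or t3), while the kinase gene Pim1 was lower (132, 120, 56.4 and 49.3 RPKM in 2i, 75.2, 93.7, 36.4 and 36.1 in t2i; −0.55, SE 0.10). In the BMP list 2 of 14 were higher and 1 lower (background 4.19% and 3.89%). The ligand gene Bmp4 measured 0.69, 0.20, 2.27 and 2.93 RPKM in 2i and 4.93, 1.75, 8.72 and 8.54 in t2i (1.47, SE 0.23, adjusted p = 0.0027 in limma), and its target Id1 0.96 to 2.54 RPKM in 2i and 3.41 to 11.4 in t2i (1.25, SE 0.33; kept only without t3 or t6). The inhibitor gene Smad6 was lower (−0.67, SE 0.12; not in the additive fit), at 4.09 and 2.66 RPKM (2i) against 0.92 and 0.92 (t2i) in XY lines and 6.56 and 5.90 against 5.55 and 5.23 in XX lines.

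YAP targets were lower in 2 of 15 cases and higher in 0 (background 3.89% and 4.19%). Cyr61 measured 28.8, 26.5, 4.18 and 3.09 RPKM in 2i and 10.1, 9.51, 1.37 and 1.18 in t2i (−1.21, SE 0.15, adjusted p = 0.00079 in limma). Ctgf measured 23.5, 18.2, 6.40 and 5.86 RPKM in 2i and 8.49, 8.63, 2.87 and 3.09 in t2i (−1.01, SE 0.14, adjusted p = 0.0012 in limma). Both encode matricellular proteins, both were lower in t2i within each sex, and both stood above 100 RPKM in the serum lines. Those serum libraries also held 789 to 1276 RPKM of summed fibroblast markers, whose part in these levels was not tested. Of 13 Wnt targets Ccnd1 and Lef1 were higher and Apcdd1, a secreted Wnt inhibitor gene, lower (−0.54, SE 0.13; kept only without c6 or t3), and Axin2, a direct beta-catenin target, did not pass the test (−0.25, SE 0.19). In the Nodal list Tdgf1 was higher while Nodal (−0.39, SE 0.09; kept only without c4, c6 or t1) and Pcsk6, a convertase that processes it (−0.55, SE 0.10), were lower.

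**Figure D3:**
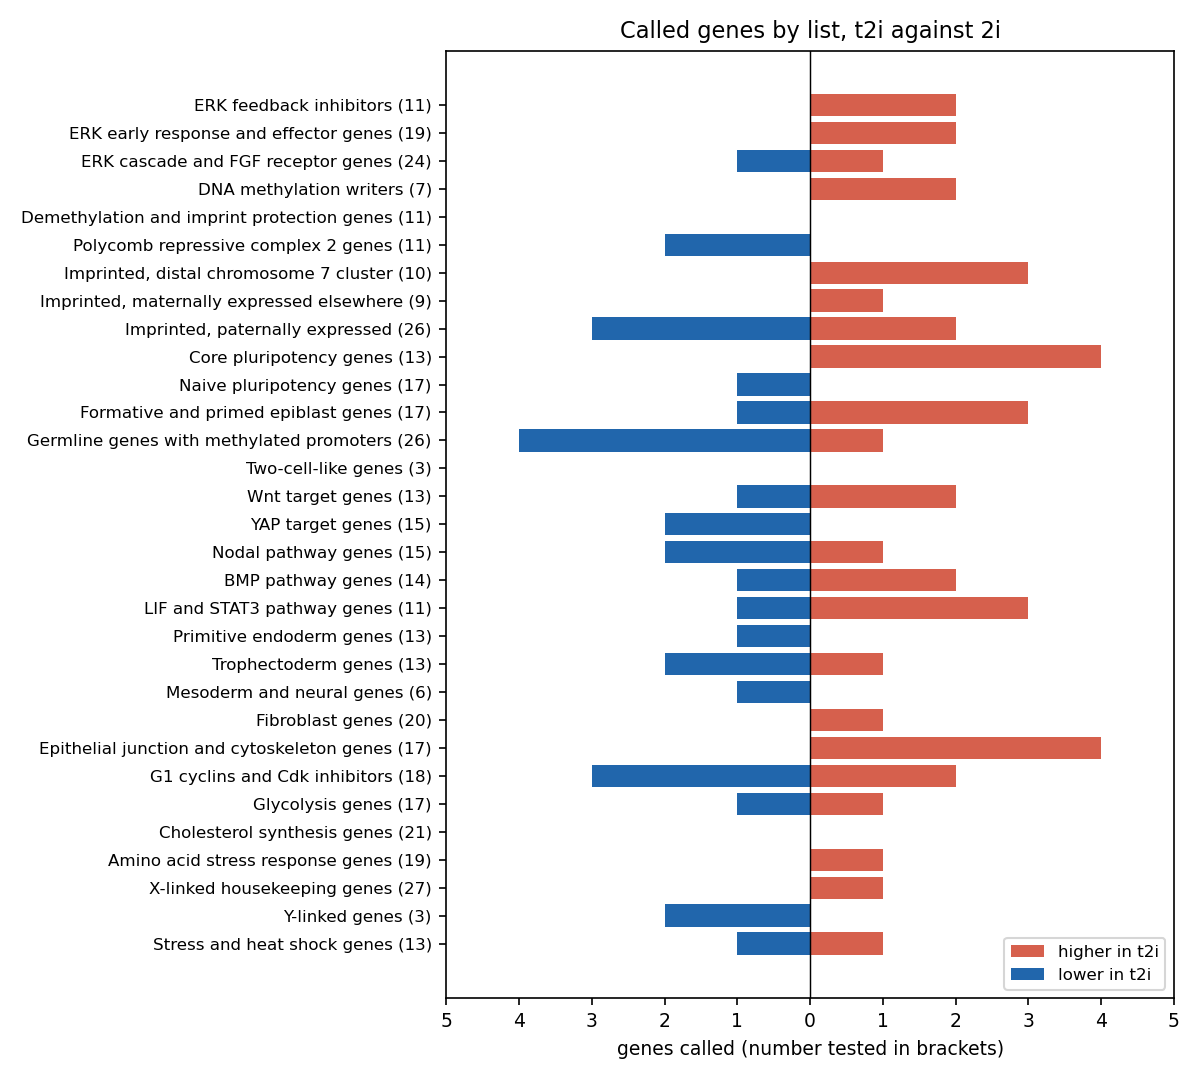
Number of called genes in each of 31 gene lists, higher in t2i to the right and lower to the left, with the number of tested genes in brackets. Over all genes, 4.19% were called higher and 3.89% lower. The longest bars hold 4 genes, for core pluripotency and epithelial genes (higher) and germline genes (lower); some genes stand in more than 1 list.

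Cell-cycle inhibitors differed in direction. Cdkn2a measured 62.2 and 63.8 RPKM in the 2i XX lines and 45.9 and 42.8 in the 2i XY lines, against 31.1 and 42.1 in the t2i XX lines and 10.7 and 11.3 in the t2i XY lines. All t2i lines were below all 2i lines, and the log2 difference was −0.78 in XX and −1.92 in XY lines (adjusted p of their difference 0.038 in limma). Cdkn2c was lower (−0.65, SE 0.17; kept only without c6 or t3), as was Cdkn1a, named after its value was seen (−0.49, SE 0.11), beside the higher Cdkn1c and Ccnd1. In all 3 of 18 genes of the list were lower and 2 higher (background 3.89% and 4.19%). Of 13 stress and heat shock genes 1 was higher and 1 lower. The higher one was Gadd45a, which acts in DNA damage responses (39.2, 49.7, 20.6 and 35.4 RPKM in 2i, 57.5, 71.7, 53.0 and 41.7 in t2i; 0.65, SE 0.15, adjusted p = 0.017 in limma); it lost its call in the additive fit, in the group-mean fit of the 8 libraries, and without c3, t2 or t3. The lower one, its paralog Gadd45b, fell in XY lines from 23.1 and 22.9 to 7.12 and 9.06 RPKM and stood at 40.3 and 46.2 (2i) and 37.4 and 49.7 (t2i) in XX lines (difference between the sexes 1.41, SE 0.25, adjusted p = 0.02 in limma). Of 17 glycolysis genes Pdk1, a kinase that inhibits pyruvate dehydrogenase, was higher (0.86, SE 0.19; lost without c3, c6, t1 or t6) and Slc2a3, a glucose transporter gene, lower (740, 635, 512 and 429 RPKM in 2i, 485, 500.1, 306 and 292 in t2i; −0.56, SE 0.10, adjusted p = 0.0054 in limma). Of 21 genes for cholesterol synthesis limma called 0, with 6 at an unadjusted p under 0.05 (log2 differences of −0.13 to 0.37), and of 19 amino acid stress genes Slc7a3 alone was (0.53, SE 0.14; kept only without t3).

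Lineage genes were mostly at low levels. Of 13 tested primitive endoderm genes Sparc was lower (268, 291, 227 and 260 RPKM in 2i, 202, 242, 135 and 121 in t2i; −0.63, SE 0.11, adjusted p = 0.0055 in limma); it is also expressed widely outside that lineage. Of 13 tested trophectoderm genes 2 were lower and 1 higher (background 3.89% and 4.19%). The higher one was Tfap2c, an AP-2 factor gene that ESCs also express (28.1, 29.8, 21.2 and 19.6 RPKM in 2i, 31.2, 28.8, 38.9 and 38.9 in t2i; 0.47, SE 0.09, adjusted p = 0.009 in limma). Gata3 measured 11 and 14.5 RPKM in the 2i XX lines, 3.54 and 3.28 in the t2i XX lines and at most 0.06 in the XY lines of both media. Tfap2a measured 4.86, 3.23, 1.87 and 1.56 RPKM in 2i and 0.33, 0.64, 1.25 and 1.18 in t2i (−1.02, SE 0.14, adjusted p = 0.0014 in limma). Gata3 and Tfap2a thus fell in XX lines, with differences between the sexes of −1.60 (adjusted p = 0.046) and −1.47 (adjusted p = 0.032) in limma. The additive fit ended the calls of all 3 trophectoderm genes, and leaving out c4 that of Gata3 (−0.92 to −0.73 over the 8 fits). Of 6 mesoderm and neural genes Gsc was lower (8.74, 9.37, 3.69 and 3.02 RPKM in 2i, 3.31, 5.31, 1.49 and 0.79 in t2i; −0.99, SE 0.18). Of 20 fibroblast genes Thy1, which some ESCs express, was higher (0.85, SE 0.20; kept only without c2, t1 or t2) at no more than 5.32 RPKM. Of 3 tested genes of the 2-cell-like state limma called 0, also at an unadjusted p under 0.05 (log2 differences of −0.03 to 0.13).

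The t2i effect was also compared between the sexes. In XX lines 466 genes were higher (3.54%) and 315 lower (2.4%), and in XY lines 140 (1.06%) and 184 (1.4%). Genes called in both sexes with the same sign numbered 91, and 9 had opposite signs. The difference of the effects was called for 166 genes, 117 with the larger value in XX lines (0.89%) and 49 with the smaller (0.373%); 10 of the 166 were among the 474 X-linked genes tested. With t2 and t6 left out of the fit, the comparison within XX lines gave 400 higher and 247 lower genes. Leaving out any XY line, the 2i lines c2 and c6 included, cost more of the XY calls than leaving out any XX line. The XY count fell from 324 to 25 without t2 and to 78 without t6, and the 166 to 46 and 69; every other left-out line gave 55 to 123 of the latter.

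**Figure D4:**
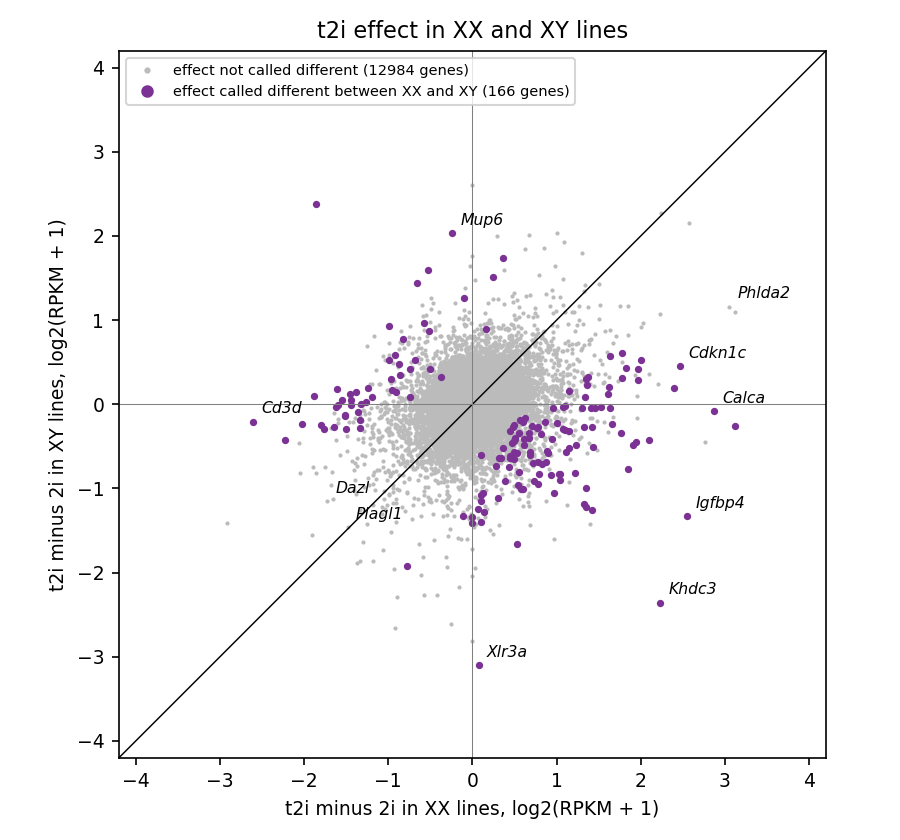
Log2 difference t2i minus 2i in XX lines (horizontal) and XY lines (vertical) of 13150 genes on the log2(RPKM + 1) scale, with the line of equal effects; purple marks the 166 genes whose effects were called different. Dazl and Plagl1 lie near the line, Khdc3 and Igfbp4 on opposite sides of 0, and Cdkn1c (2.47 and 0.46) and Calca (2.87 and −0.08) farther from 0 in XX than in XY lines.

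Khdc3, also called Filia, a subunit of the maternal complex of oocytes, showed the widest split. It measured 8.85 and 6.02 RPKM in the 2i XX lines and 42.6 and 33.7 in the t2i XX lines, but 35.1 and 33.2 in the 2i XY lines and 4.91 and 6.95 in the t2i XY lines. The order of the sexes was thus opposite in the media, and the effects differed by 4.58 log2 units (SE 0.34, adjusted p = 9.4e-05 in limma). The a2i lines held 59.9 and 62.7 (XX) and 25.1 and 27.6 RPKM (XY), above t2i by 1.34 log2 units (adjusted p = 0.0068 in limma). Igfbp4, which binds insulin-like growth factors, showed the same exchange of order, at 0.97 and 3.77 (2i) and 13.9 and 20.7 RPKM (t2i) in XX lines and 17.2 and 16.3 (2i) and 4.44 and 8.14 RPKM (t2i) in XY lines.

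Calca, the calcitonin gene, differed in XX lines: 2.16 and 3.70 RPKM in 2i and 21.8 and 33.8 in t2i, against 84.7 and 84.7 in 2i and 70.2 and 91.5 in t2i XY lines. Spink1, a trypsin inhibitor gene, is listed at 0 in both 2i XX lines and stood at 9.82 and 6.0 RPKM in the t2i XX lines, with at most 0.83 RPKM in the XY lines of both media. In the T-cell receptor subunit gene Cd3d the 2i XX lines were the high ones, at 24.5 and 31.5 RPKM against 2.1 and 6.16 in the t2i XX lines and at most 0.31 in the XY lines. The X-linked gene Tex13 likewise fell from 4.72 and 5.46 to 0.45 and 0.86 RPKM in XX lines, with 0.57 to 1.54 in XY lines.

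In other genes the XY lines carried the difference. The low Y-linked RNA of t2 and t6 coincides with it, and its part was not tested. Xlr3a, an X-linked gene with near-identical copies that the counting may not tell apart, measured 96.0 and 142 RPKM in the 2i XX lines, 99.5 and 152 in the t2i XX lines, 20.0 and 14.1 in the 2i XY lines and 0.70 and 1.54 in the t2i XY lines. Gja1, the gap junction gene for connexin 43, measured 5.61 and 6.05 in 2i against 21.9 and 17.6 RPKM in t2i XY lines and stood at 24.5 and 22.1 (2i) and 20.6 and 12.1 (t2i) in XX lines. Mup6, of a multigene family whose reads may be split, went from 2.48 and 3.04 to 14.1 and 14.5 RPKM in XY lines with 4.71 to 6.81 in XX lines. Ms4a10 and Anxa2 completed the named set. Anxa2, a membrane-binding annexin gene, measured 9.88 and 13.3 (2i) and 24.4 and 43.0 RPKM (t2i) in XX lines. Its XY lines held 15.8 and 17.4 (2i) and 3.99 and 9.90 RPKM (t2i). The log2 difference of Anxa2 was 1.42 in XX lines (adjusted p = 0.032) and −1.25 in XY lines (adjusted p = 0.08) in limma. In Anxa2 the XY lines thus did not carry the difference alone.

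**Figure D5:**
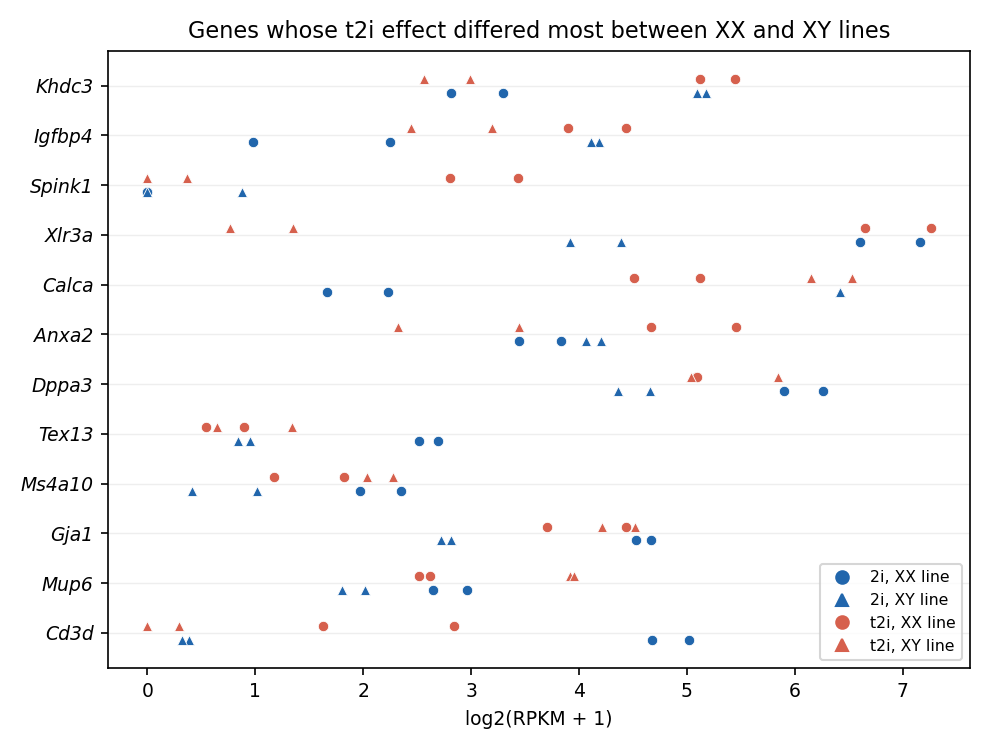
Level of the 12 genes with the largest difference of the t2i effect between XX and XY lines, as log2(RPKM + 1), with marks as in the plot of most changed genes. Khdc3 and Igfbp4 exchange the order of the sexes between the media, whereas in Calca, Spink1 and Cd3d the XX lines separate by medium and in Xlr3a and Mup6 the XY lines do.

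The sexes were also compared within each medium. Over all autosomal genes, 2961 of 12660 (23.4%) were called between XX and XY lines in 2i and 2177 (17.2%) in t2i. Without single lines the 2i count was 1679 (without c2) at the lowest and the t2i count 1028 (without t2), and the difference of these counts was not tested.

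Beside t2i, the a2i lines of the same background show where the raised and lowered genes stand when MEK is left free of its inhibitor; the comparisons share the 2i lines, so their values are given side by side only. Phlda2 measured 49.1, 80.2, 79.0 and 90.5 RPKM in a2i, Cdkn1c 4.68, 6.87, 5.90 and 4.70, and Dazl 8.35, 9.50, 2.27 and 3.07. The differences between a2i and t2i of these 3 genes did not pass the test (log2 differences of 0.25, −0.26 and 0.11). Spry4 reached 7.84, 2.01, 9.16 and 5.03 RPKM and Dusp6 8.14, 3.92, 15.9 and 9.76 in a2i, without a called difference from t2i (0.92, adjusted p = 0.19, and 0.72, adjusted p = 0.13, in limma). Bhmt, in contrast, was higher in a2i than in t2i (2.46, 4.15, 0.50 and 0.66 RPKM; 0.83, adjusted p = 0.031 in limma), Gap43 was lower (1.05, 0.94, 1.31 and 0.83 RPKM; −0.87, adjusted p = 0.024) and Slc2a3 higher (1116, 914, 334 and 268 RPKM; 0.52, adjusted p = 0.032).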

How the data were processed

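Expression was measured by stranded mRNA sequencing. The authors deposited 1 table of gene-level RPKM values on mm10; per the submitters' processing notes the series used Cufflinks 2.2.1, Bowtie2 2.2.5, TopHat2 2.1.0 and cutadapt 1.9.1, without saying which made this table. Its loci start 1 base low against RefSeq and were written 1-based. Values became log2(RPKM + 1); genes at 1 RPKM or more in at least 2 of the 16 libraries of the cross (2i, t2i, a2i, serum) were kept. A model of 8 medium-by-sex means with 8 residual degrees of freedom was fitted in limma 3.58.1 (R 4.3.3) with a mean-variance trend and tested on simulated data. Named genes were a checked set, up to 4 called members of each of 31 lists, the 12 most raised and 12 most lowered called genes of at least 1 RPKM without overlap of the media (Gm and Rik names passed over), and up to 6 genes in each direction of the sex difference. The members, lists and tests were chosen with earlier results of these data known. Alternatives covered the pseudocount, filter, normalization, libraries fitted, model and each left-out line; the fit without t2 and t6 and the counts between the sexes were added after seeing the data. Promoter sequences are RefSeq's.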

Additional observations from a re-analysis of the deposited data

Results flagged for a closer look

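In 19 named genes the t2i effect differed between XX and XY lines by limma's test of the difference itself, given here as the XX minus the XY log2 difference. It was positive for Khdc3 (4.584), Igfbp4 (3.887), Spink1 (3.376), Xlr3a (3.175), Calca (2.950), Anxa2 (2.674), Cdkn1c (2.012), Gadd45b (1.406), Slc22a18 (1.390), Ddx3y (1.343) and Cdkn2a (1.141). It was negative for Cd3d (−2.407), Mup6 (−2.271), Gja1 (−2.125), Ms4a10 (−2.106), Tex13 (−1.988), Dppa3 (−1.924), Gata3 (−1.599) and Tfap2a (−1.465). Of these, 12 were named because their difference was large. Ddx3y is Y-linked, so its value is the difference among XY lines alone.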

How the results depend on the processing

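In the t2i comparison the count of 1062 called genes became 415 (215 higher and 200 lower) in a fit of the 8 libraries with additive medium and sex terms. Other settings of pseudocount, filter, normalization and libraries gave 873 to 1136. Leaving out a line gave 569 to 904 genes; 254 to 689 of 781 within XX lines; 25 to 334 of 324 within XY lines; 46 to 123 of 166 for the difference between the sexes; and, between XX and XY lines, 1679 to 2967 of 2961 autosomal genes in 2i and 1028 to 2158 of 2177 in t2i. Of 88 named called genes, the additive fit ended 35 calls and a left-out line 7 (without t3) to 23 (without t1). A replicate block on the line number, with 2 residual degrees of freedom, called 3 genes (1 higher and 2 lower) and ended 87 of the 88 calls. Lines c4 and t1 share their number with no other line, so the block fit rests on c3 and t3 (XX) and on c2, t2, c6 and t6 (XY). Its t2i difference thus weighs the XY lines more than the XX lines. Deviations of same-numbered lines from their group means correlated at −0.254 to 0.002. With 2 lines in each group these deviations mirror each other, so they cannot decide whether the numbers pair lines. Named genes with no call changed sign: Anxa2 (block −0.162; left-out lines −0.195 to 0.368), Dnmt1 (block −0.064; −0.084 to 0.151), Dppa3 (block 0.352; −0.230 to 0.170), Khdc3 (left-out lines −0.188 to 0.056), Prdm14 (−0.039 to 0.055) and Tfcp2l1 (quantile normalization −0.003; block −0.045; −0.109 to 0.127). Each left-out line removes 1 residual degree of freedom; the cause of the other losses was not tested. The additive fit has 5 residual degrees of freedom against 4 in the group-mean fit of the same libraries, which called 873. Unlike the group-mean fit, the additive fit holds no term for a t2i effect differing between the sexes, and neither does the block fit. Such a difference counts there as spread between lines. Without read counts, precision at low RPKM cannot be given.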

Other observations

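Some called genes with log2 differences of at least 0.75 lay beside one another and moved the same way; these pairs were chosen after their values were seen. Rasgrp2, a Ras and Rap exchange factor gene, measured 5.87 and 7.02 RPKM in the 2i XX lines and 40.9 and 35.3 in the t2i XX lines, against 106 and 114 in 2i and 120 and 132 in t2i XY lines, next to Pygm (log2 differences of 1.29 and 0.75). Cd3g measured 66.5 and 61.4 RPKM in the 2i XX lines, 5.57 and 10.2 in the t2i XX lines and at most 1.98 in the XY lines, beside Cd3d. The other pairs were Dok1 with Loxl3, Smtnl1 with Ube2l6, Hspb2 with Cryab, Evc with Crmp1 and with Evc2, and Xlr4a with Xlr3a.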
